A study of Mus musculus with 15 samples.

Results

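Cxcl1, Cxcl2, Cxcl5, Ccl3 and Ccl4 are secreted chemokines that draw neutrophils and monocytes to sites of infection or injury. They were chosen as a family of neutrophil-attracting and MIP-1 chemokines, and a probe set counted as a member where its single gene symbol in the platform annotation was one of these names. This gave 6 probe sets of the 12422 tested, for 5 of the 8251 genes covered. Cxcl1 had 2 probe sets (95348_at and 95349_g_at), and Cxcl2 (101160_at), Cxcl5 (98772_at), Ccl3 (102424_at) and Ccl4 (94146_at) had 1 each. The probe set with the higher mean, 95348_at, stands for Cxcl1 unless the other is named.

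The values come from dendritic cells (DC) grown for 4 days from bone marrow of female NOD mice of 6 to 8 weeks, a strain that develops autoimmune diabetes. GM DC were grown in 1 ng/ml of the growth factor GM-CSF and banded on 16% metrizamide, and GM4 DC in 1 ng/ml each of GM-CSF and interleukin-4 and banded on 14.5% metrizamide. All were then given 10 µg/ml lipopolysaccharide (LPS), which signals through Tlr4, and 50 ng/ml interferon-γ, and total RNA was taken after 0, 6 and 20 h. In the title of the series GM4 DC are the therapeutic kind and GM DC the other. There were 3, 2 and 2 GM arrays and 3, 3 and 2 GM4 arrays at 0, 6 and 20 h, and the design text calls the replicates biological. The growth factors and the gradient change together between the DC types, so their parts in a difference cannot be told apart. The label of GM4 0 h replicate 1 gives no growth factor dose and no gradient, and the GM4 samples titled 0 h carry source names that speak of exposure to the stimulus.

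Cxcl1 (also called KC), Cxcl2 (MIP-2) and Cxcl5 (LIX) belong to the CXC chemokines that carry the amino acids Glu-Leu-Arg before the first cysteine, and they act mainly through Cxcr2 on neutrophils. Ccl3 (MIP-1α) and Ccl4 (MIP-1β) are CC chemokines. Ccl3 binds Ccr1, and both attract monocytes, T cells, NK cells and immature DC, while Ccl3 also acts on mouse neutrophils. Macrophages and DC switch these genes on quickly when Tlr4 is engaged, through NF-κB and MAP kinases, and their mRNAs are short-lived because AU-rich sequences in them are bound by decay factors such as Zfp36.

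Promoters are printed because the family is a classic set of NF-κB targets and because the CXC members lie in 1 cluster. RefSeq's table for GRCm38.p6 held 3 of the 5 genes. Each line gives the 180 bases before the annotated start site, 5′ to 3′ on the gene's own strand, and capitals mark matches to the motifs searched. Cxcl1 is at chr5:90891065-90891244 on the plus strand, Cxcl2 at chr5:90903719-90903898 on the plus strand and Ccl3 at chr11:83649379-83649558 on the minus strand.
Cxcl1: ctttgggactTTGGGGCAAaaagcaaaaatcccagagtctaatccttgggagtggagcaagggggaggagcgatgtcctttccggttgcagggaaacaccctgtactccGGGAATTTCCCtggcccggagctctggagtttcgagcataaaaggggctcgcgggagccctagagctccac
Cxcl2: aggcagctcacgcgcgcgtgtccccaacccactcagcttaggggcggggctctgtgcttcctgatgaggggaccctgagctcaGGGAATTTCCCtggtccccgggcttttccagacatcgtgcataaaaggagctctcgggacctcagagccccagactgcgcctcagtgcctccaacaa
Ccl3: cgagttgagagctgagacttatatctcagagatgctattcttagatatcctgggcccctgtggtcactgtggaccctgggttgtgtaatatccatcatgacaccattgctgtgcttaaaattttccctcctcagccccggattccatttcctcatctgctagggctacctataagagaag

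The searched window of 300 bases ran from 250 bases before the start site to 50 after it, on both strands. The κB consensus, searched under that name, matched once on each strand with the pair overlapping, from base -71 to -61 in Cxcl1 and from -97 to -87 in Cxcl2, counted from the start site. It had no match in the Ccl3 window, and 8.46% of the 32851 promoters in the table held one. The letters TTGCNNCAA, searched as a C/EBP motif, matched once, on the minus strand of Cxcl1 from -170 to -162, against 2.08% of all promoters. The AP-1 letters TGANTCA (7.81% of promoters) and the letters TATAAA (13.6%) had no match in these 3 windows. Cxcl1 and Cxcl2 shared a run of 14 bases, gggaatttccctgg, which starts at -71 and -97. In the reference annotation Cxcl1 and Cxcl2 are neighbours with 0 protein-coding genes between them, Cxcl5 lies 4 genes away on the same chromosome (Ppbp, Pf4, Cxcl3 and Cxcl15 between), and Ccl3 and Ccl4 are neighbours on chromosome 11. Of the other CXC ligands of this kind, Cxcl3, Ppbp and Cxcl15, 0 of 3 had a probe set of their own symbol.

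Values are Affymetrix probe set signals, scaled so that each array's trimmed mean is 150.1. The median signal was 40.1 to 48.5 per array, and 29.7% to 35.3% of probe sets per array lay below 16. Differences are of log2(signal + 16), which understates change at low signal, and folds are on the same signal + 16 scale. The ± after a difference is limma's standard error, and a change was called where the Benjamini-Hochberg adjusted p over all 12422 probe sets was under 0.05. Signals of different probe sets are not compared with each other. The Gapdh control's 3′/5′ ratio, a measure of RNA degradation, ran from 1.18 to 2.46 over the 7 GM arrays and from 1.03 to 1.48 over the 8 GM4 arrays. The actin control's ratio ran from 1.43 to 2.26 on GM and from 1.13 to 1.44 on GM4 arrays, so it nearly separated the DC types. It was highest on the 2 GM arrays at 20 h (2.15 and 2.26). RNA quality and DC type thus cannot be fully told apart.

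**Figure D1:**
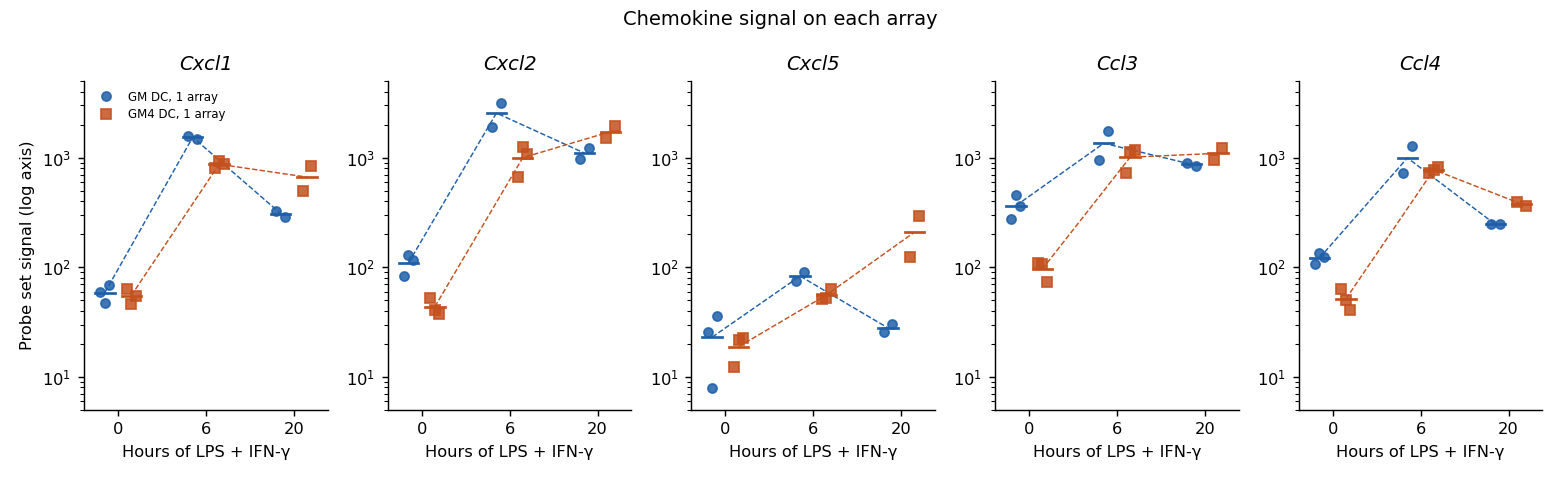
Signal of the main probe set of each chemokine (log axis) against hours of LPS and interferon-γ, 1 point per array, with lines through the group means, for GM and GM4 DC. Cxcl1, Cxcl2, Ccl3 and Ccl4 rose from 0 to 6 h in both DC types, Cxcl1 and Ccl4 then dropped steeply in GM DC, and Cxcl5 was highest on the 2 GM4 arrays at 20 h.

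All 5 chemokines rose within 6 h in both DC types. In GM DC the CXC members and Ccl4 were lower at 20 h than at 6 h, whereas in GM4 DC Cxcl5 went on rising and Ccl4 alone was called lower. Set against GM DC, GM4 DC were lower for Cxcl2, Ccl3 and Ccl4 at 0 h, lower for Cxcl1 and Cxcl2 at 6 h, and higher for Cxcl1 and Cxcl5 at 20 h.

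Cxcl1, the first of the Cxcr2 ligands, had 0 h signals of 59.5, 47.2 and 69.5 in GM DC and 63.7, 46.6 and 54.9 in GM4 DC. At 6 h the GM arrays stood at 1577 and 1492 and the GM4 arrays at 804, 923 and 883. At 20 h the GM arrays stood at 329 and 289 and the GM4 arrays at 497 and 831. The DC types overlapped at 0 h, both GM arrays were above all GM4 arrays at 6 h, and both GM arrays were below both GM4 arrays at 20 h. From the lowest mean to the highest the groups ran GM4 0 h, GM 0 h, GM 20 h, GM4 20 h, GM4 6 h and GM 6 h, and the arrays overlapped within the 0 h pair and between GM4 at 20 and 6 h. The rise to 6 h was 4.39 ± 0.19 in GM DC (20.9-fold, adjusted p = 3.95e-09, limma) and 3.64 ± 0.17 in GM4 DC (12.5-fold, adjusted p = 1.11e-08). In GM DC the gene then fell by 2.26 ± 0.21 from 6 to 20 h (adjusted p = 1.17e-05), while GM4 DC changed by -0.42 ± 0.19 (adjusted p = 0.209), with GM4 20 h replicate 2 at 831 and inside the 6 h range. Without that replicate the GM4 change was -0.79 and was called (adjusted p = 0.0382).

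GM4 DC differed from GM DC in Cxcl1 by -0.07 ± 0.17 at 0 h (adjusted p = 0.851), a value near 0 whose sign turned under quantile normalization (0.0042) and median centring (0.0010). GM4 DC were 1.75-fold lower at 6 h (-0.81 ± 0.19, adjusted p = 0.015) and 2.03-fold higher at 20 h (1.02 ± 0.21, adjusted p = 0.0126). The difference at 6 h was no longer called without GM 6 h replicate 1 (-0.77) or replicate 2 (-0.85), each of which leaves 1 GM array at that time. That at 20 h was not called without the second replicate of GM DC (0.94) or of GM4 DC (0.66) at that time. The other probe set, 95349_g_at, had GM signals of 1333 and 1701 at 6 h and 260 and 299 at 20 h, and GM4 signals of 669, 740 and 794 at 6 h and 377 and 722 at 20 h. It gave the same directions, with a called difference at 6 h of -1.02 ± 0.26 (adjusted p = 0.0225), but its difference at 20 h, 0.87 ± 0.29, was not called (adjusted p = 0.115).

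Cxcl2, which shares its receptor and the printed 14 bases with Cxcl1, had 0 h signals of 83.8, 129 and 116 in GM DC and 52.6, 40.8 and 37.4 in GM4 DC. The 6 h signals were 1923 and 3181 in GM DC and 661, 1254 and 1082 in GM4 DC. The 20 h signals were 971 and 1233 in GM DC and 1526 and 1931 in GM4 DC. GM4 arrays lay below GM arrays without overlap at 0 and 6 h and above them at 20 h. The order of means was GM4 0 h, GM 0 h, GM4 6 h, GM 20 h, GM4 20 h and GM 6 h, with overlapping arrays between GM4 6 h and GM 20 h and between GM4 20 h and GM 6 h. Both DC types rose strongly by 6 h, by 4.33 ± 0.27 in GM DC (20.1-fold, adjusted p = 8.61e-08) and by 4.05 ± 0.24 in GM4 DC (16.6-fold, adjusted p = 8.38e-08). From 6 to 20 h GM DC fell by 1.17 ± 0.29 (adjusted p = 0.0142), a call lost without GM 6 h replicate 2 (-0.80) or GM 20 h replicate 1 (-0.995). The change in GM4 DC was 0.82 ± 0.27 and was not called (adjusted p = 0.0671), but it was called in a fit with the replicate number as a block.

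In unstimulated cells Cxcl2 was 2.09-fold lower in GM4 DC (-1.07 ± 0.24, adjusted p = 0.00886). At 6 h it was 2.54-fold lower (-1.34 ± 0.27, adjusted p = 0.00568), a call lost without GM 6 h replicate 2 (-0.98). At 20 h the GM4 value was 0.64 ± 0.29 above that of GM DC and was not called (adjusted p = 0.283). The 0 h and 6 h calls were also lost with the 3′/5′ ratio of the control genes as a covariate, at -0.79 (adjusted p = 0.214) and -1.06 (adjusted p = 0.118), and so was the 6 h call of Cxcl1, at -0.62 (adjusted p = 0.206).

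Cxcl5, the third Cxcr2 ligand measured and best known from epithelial cells and platelets, was near the low end of the arrays before stimulation. Its 0 h signals were 25.4, 7.88 and 35.8 in GM DC and 12.2, 21.8 and 22.4 in GM4 DC. At 6 h they were 75.6 and 90.3 in GM DC and 51.7, 52.6 and 63.3 in GM4 DC. At 20 h they were 25.5 and 30.3 in GM DC but 125 and 292 in GM4 DC. The GM 20 h arrays lay within the range of the GM 0 h arrays, whereas both GM4 20 h arrays were above every other array of the series, although far apart from each other. The order of means was GM4 0 h, GM 0 h, GM 20 h, GM4 6 h, GM 6 h and GM4 20 h, and only the first 3 of these overlapped with a neighbour.

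The rise of Cxcl5 to 6 h was 1.41 ± 0.34 in GM DC (2.66-fold, adjusted p = 0.00729) and 1.06 ± 0.31 in GM4 DC (2.08-fold, adjusted p = 0.0294). The GM call was lost without GM 6 h replicate 2 (1.30), and the GM4 call without any 1 of the 6 GM4 arrays at 0 and 6 h (0.91 to 1.13). From 6 to 20 h GM4 DC rose by a further 1.54 ± 0.34 (adjusted p = 0.00888), lost without GM4 20 h replicate 2 (0.98). GM DC fell by 1.17 ± 0.37 (adjusted p = 0.0466), which lies at the edge of the threshold. That call was lost without any 1 of 11 of the 15 arrays, at values from -1.28 to -1.06, and kept only without replicate 2 or 3 of GM DC at 0 h or either GM4 array at 20 h. GM4 DC differed from GM DC by -0.11 ± 0.31 at 0 h (adjusted p = 0.870), the sign of which turned under quantile normalization (0.0057), and by -0.46 ± 0.34 at 6 h (adjusted p = 0.442). At 20 h Cxcl5 was 4.76-fold higher in GM4 DC (2.25 ± 0.37, adjusted p = 0.00332), and this call was kept in every alternative that was run.

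Ccl3, the MIP-1 chemokine that acts through Ccr1, was the member whose unstimulated level differed most between the DC types. At 0 h its signals were 274, 452 and 364 in GM DC and 108, 107 and 72.9 in GM4 DC. At 6 h they were 943 and 1761 in GM DC and 727, 1116 and 1183 in GM4 DC. At 20 h they were 895 and 842 in GM DC and 957 and 1235 in GM4 DC. The DC types stood apart at 0 h, GM4 being lower, they overlapped at 6 h, and at 20 h both GM4 arrays were slightly above both GM arrays. In the order of means, GM4 0 h, GM 0 h, GM 20 h, GM4 6 h, GM4 20 h and GM 6 h, each of the last 4 groups overlapped with the next. At 0 h GM4 DC were 3.37-fold lower (-1.75 ± 0.25, adjusted p = 0.000318), and the differences at 6 h (-0.38 ± 0.28, adjusted p = 0.436) and 20 h (0.32 ± 0.30, adjusted p = 0.690) were not called. The rise to 6 h was 1.81 ± 0.28 in GM DC (3.5-fold, adjusted p = 0.000274) and 3.18 ± 0.25 in GM4 DC (9.06-fold, adjusted p = 9.88e-07). No change from 6 to 20 h was called, at -0.56 ± 0.30 in GM DC (adjusted p = 0.267) and 0.14 ± 0.28 in GM4 DC (adjusted p = 0.868).

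Ccl4, the neighbour of Ccl3 and the other MIP-1 chemokine, had 0 h signals of 107, 133 and 124 in GM DC and 63.7, 50.0 and 40.3 in GM4 DC. At 6 h the GM arrays stood at 726 and 1264 and the GM4 arrays at 726, 775 and 824. At 20 h the GM arrays were both at 246 and the GM4 arrays at 391 and 362. GM4 arrays were below GM arrays at 0 h, overlapped them at 6 h and were above them at 20 h. The order of means was GM4 0 h, GM 0 h, GM 20 h, GM4 20 h, GM4 6 h and GM 6 h, with overlap between the last pair alone. Unstimulated GM4 DC had 2.05-fold less Ccl4 (-1.04 ± 0.18, adjusted p = 0.0014), while -0.30 ± 0.20 at 6 h (adjusted p = 0.384) and 0.58 ± 0.22 at 20 h (adjusted p = 0.172) were not called. It rose by 2.83 ± 0.20 in GM DC (7.12-fold, adjusted p = 2.78e-07) and by 3.57 ± 0.18 in GM4 DC (11.9-fold, adjusted p = 1.67e-08) to 6 h. It then fell by 1.90 ± 0.22 in GM DC (adjusted p = 6.02e-05) and by 1.01 ± 0.20 in GM4 DC (adjusted p = 0.00437), the second lost without GM4 20 h replicate 2 (-0.96).

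**Figure D2:**
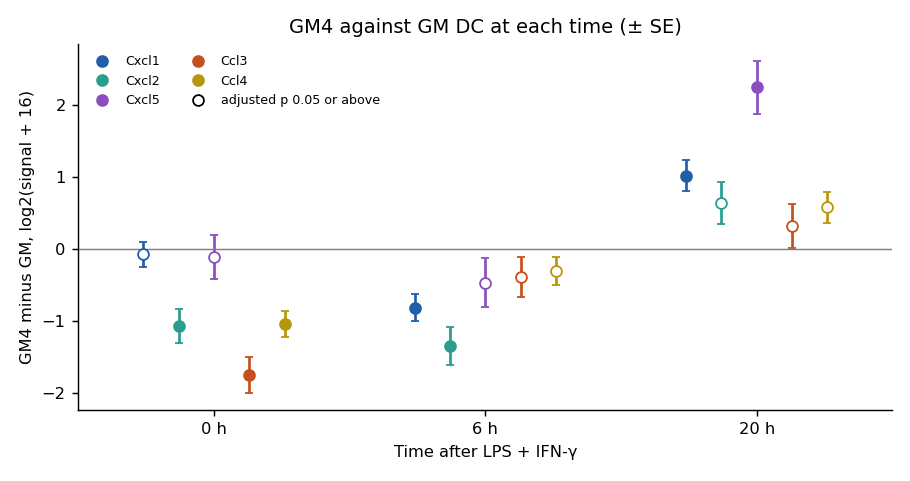
Difference between GM4 and GM DC in log2(signal + 16) for each chemokine at 0, 6 and 20 h, as limma estimates with their standard errors. The values for Cxcl1 run from -0.07 to -0.81 to 1.02 and those for Cxcl5 from -0.11 to -0.46 to 2.25.

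Taken by time, 3 of the 5 genes were lower in GM4 DC at 0 h (Cxcl2, Ccl3 and Ccl4), where 7.12% of all probe sets were called lower. At 6 h 2 were lower (Cxcl1 and Cxcl2), against 4.74% called lower, and this count was 1 (Cxcl1) in a fit of those groups alone. At 20 h 2 were higher (Cxcl1 and Cxcl5), against 3.14% called higher, and a fit of those groups alone left Cxcl5. The median difference of the 5 genes was -1.04, -0.46 and 0.64 at 0, 6 and 20 h, and that of all probe sets was -0.06, -0.04 and -0.04. In bulk RNA, fewer cells that make a chemokine and less of its RNA per cell cannot be told apart.

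The response to 6 h was called higher for all 5 genes in GM DC (8.52% of all probe sets higher, median of the 5 genes 2.83) and in GM4 DC (5.84% higher, median 3.57). By 20 h, against 0 h, 4 of 5 were still higher in GM DC, where 11% of probe sets were called higher, and all 5 in GM4 DC, where 8.71% were. The 20 h values above 0 h in GM DC were 2.13 ± 0.19 for Cxcl1, 3.16 ± 0.27 for Cxcl2, 1.25 ± 0.28 for Ccl3 and 0.94 ± 0.20 for Ccl4. Cxcl5, at 0.24 ± 0.34, was not called (adjusted p = 0.68). In GM4 DC they were 3.22 ± 0.19 for Cxcl1 (9.32-fold), 4.87 ± 0.27 for Cxcl2 (29.2-fold), 2.60 ± 0.34 for Cxcl5 (6.05-fold), 3.32 ± 0.28 for Ccl3 (9.97-fold) and 2.56 ± 0.20 for Ccl4 (5.89-fold). The 6 and 20 h responses of a DC type share its 0 h arrays and are only set side by side.

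**Figure D3:**
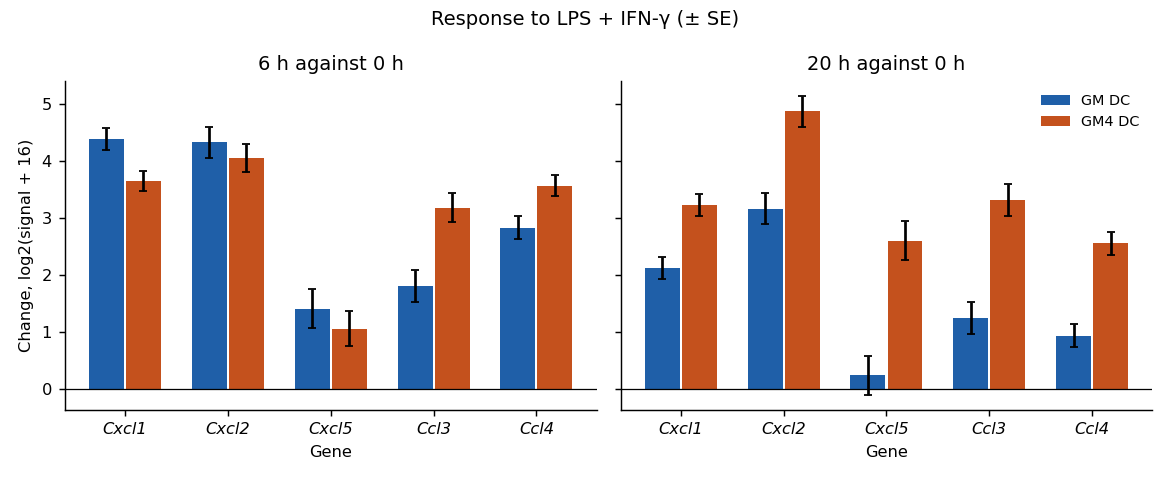
Change from 0 h in log2(signal + 16) of each chemokine in GM and GM4 DC at 6 h and at 20 h, as bars with limma's standard errors. At 6 h Ccl3 reached 1.81 in GM DC and 3.18 in GM4 DC, and at 20 h the GM4 bar was the taller one for all 5 genes.

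Whether the responses differed was tested as an interaction. For the 6 h responses 0 of the 5 differences were called, where 0.958% of all probe sets were called in either direction. They were -0.74 ± 0.26 for Cxcl1 (adjusted p = 0.225), -0.28 ± 0.36 for Cxcl2, -0.35 ± 0.46 for Cxcl5, 1.37 ± 0.37 for Ccl3 (adjusted p = 0.105) and 0.74 ± 0.27 for Ccl4 (adjusted p = 0.25). At an unadjusted p under 0.05, 2 were higher (Ccl3 and Ccl4) and 1 lower (Cxcl1) in limma's fit. The 20 h response was larger in GM4 DC for 4 of the 5 genes, where 0.555% of probe sets were called in that direction and the median of the 5 genes was 1.71 against 0.03. The differences were 1.71 ± 0.38 for Cxcl2 (adjusted p = 0.0454), 2.36 ± 0.48 for Cxcl5 (adjusted p = 0.032), 2.07 ± 0.39 for Ccl3 (adjusted p = 0.024) and 1.62 ± 0.28 for Ccl4 (adjusted p = 0.017), and 1.09 ± 0.27 for Cxcl1 was not called (adjusted p = 0.0785). The 0 h levels enter this comparison, and for Cxcl2, Ccl3 and Ccl4 those were lower in GM4 DC. Each of the 4 calls was lost when one of several arrays was left out. The call of Ccl3 was lost without GM 0 h replicate 2 or any 20 h array (1.89 to 2.25), and that of Ccl4 without any 20 h array (1.57 to 1.67). The call of Cxcl2 was lost without any 1 of 10 arrays (1.54 to 1.88), all but GM 0 h replicate 1, the GM 6 h arrays and GM4 6 h replicates 1 and 2. It was also lost at an offset of 64 (1.30), after quantile normalization (1.63) or median centring (1.64), and with no intensity trend (1.71, adjusted p = 0.0667). That of Cxcl5 was lost without GM 0 h replicate 1, either GM 20 h array, GM4 0 h replicate 1 or 2, GM4 6 h replicate 2 or GM4 20 h replicate 2 (1.79 to 2.44), at an offset of 1 (2.84) and in a fit of the compared groups alone (2.36, adjusted p = 0.0771). The number of genes called ran from 0 to 4 over these fits, and was 2 without a pair of doubted arrays (GM 0 h replicate 3 and GM 6 h replicate 1).

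The size of the step from 6 to 20 h does not use the 0 h arrays. Its standard errors and calls do, since all 15 arrays enter the estimate of the spread. In GM DC 4 of the 5 genes were called lower, all but Ccl3, where 7.75% of probe sets were called lower. In GM4 DC 1 was higher, Cxcl5 (5.68% of probe sets higher), and 1 lower, Ccl4 (6.01% lower). As a share of its 6 h mean signal, the 20 h mean of Cxcl1 was 20.1% in GM DC and 76.3% in GM4 DC. The shares were 43.2% and 173% for Cxcl2, 33.6% and 373% for Cxcl5, 64.2% and 109% for Ccl3, and 24.7% and 48.6% for Ccl4. The difference between the DC types in this step was chosen for testing after the values were seen. It was called for the 3 CXC members, with 0.427% of probe sets called in that direction, at 1.83 ± 0.29 for Cxcl1 (adjusted p = 0.0146), 1.99 ± 0.40 for Cxcl2 (adjusted p = 0.0421) and 2.71 ± 0.51 for Cxcl5 (adjusted p = 0.0325). It was 0.70 ± 0.41 for Ccl3 (adjusted p = 0.632) and 0.89 ± 0.30 for Ccl4 (adjusted p = 0.242). The other Cxcl1 probe set gave 1.89 ± 0.39 (adjusted p = 0.0448). The Cxcl1 call depended on GM 6 h replicate 1 and on replicate 2 of either DC type at 20 h (1.47 to 1.79 without one of them). That of Cxcl2 was lost without any 1 of 10 arrays (1.62 to 2.16), all but GM 0 h replicates 1 and 3, GM 6 h replicate 1 and GM4 6 h replicates 1 and 2. It was also lost after quantile normalization (1.86) or median centring (1.98), with no intensity trend (1.99, adjusted p = 0.0657), with array weights (1.77) and in a fit of the compared groups alone (1.99, adjusted p = 0.0881). That of Cxcl5 was lost without any 6 h array, either GM 20 h array or GM4 20 h replicate 2 (2.15 to 2.82), at an offset of 1 (3.30) and in a fit of the compared groups alone (2.71, adjusted p = 0.0514). Over these fits the number of genes called ran from 0 to 3, and it was 0 without the doubted arrays.

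**Figure D4:**
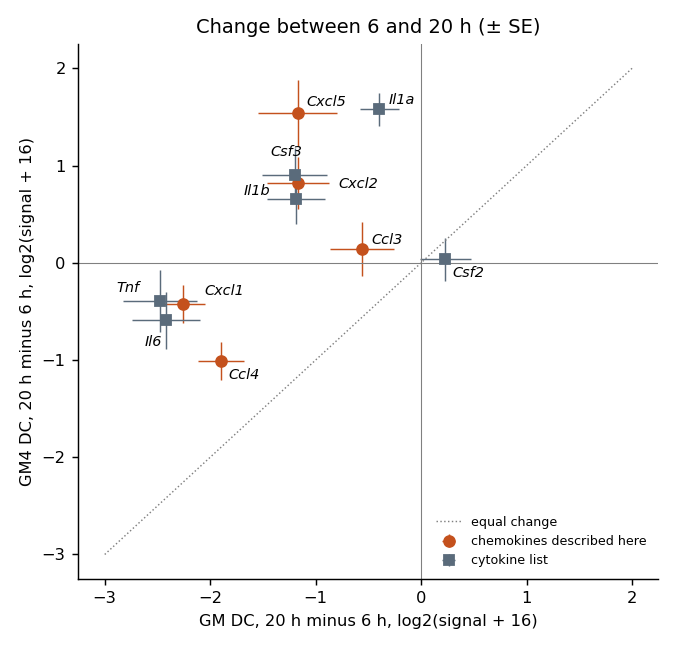
Change from 6 to 20 h in GM DC (horizontal) and GM4 DC (vertical), in log2(signal + 16) with limma's standard errors, for the 5 chemokines and 6 inflammatory cytokine genes. The dotted line marks equal change; all 5 chemokines lie above it, with Cxcl5 at -1.17 in GM DC and 1.54 in GM4 DC.

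Inflammatory cytokines that act in the same setting were read from a list of 6: Csf3 (G-CSF, which drives neutrophil output), Csf2 (GM-CSF), Il1a, Il1b, Tnf and Il6. Of these, 1 was higher (Il6, 1.78 ± 0.26) and 3 lower in unstimulated GM4 DC (Il1a, Il1b and Tnf, at -0.70 ± 0.15, -0.90 ± 0.25 and -1.25 ± 0.29). Of all probe sets 6.86% were called higher there and 7.12% lower. At 6 h 4 were lower in GM4 DC, where 4.74% of all probe sets were called lower. They were Csf3 (-1.18 ± 0.25), Il1a (-1.81 ± 0.17), Il1b (-2.13 ± 0.28) and Tnf (-1.52 ± 0.32). At 20 h limma called 0, with 2 higher at an unadjusted p under 0.05. From 6 to 20 h 4 fell in GM DC, Csf3 (-1.19 ± 0.28), Il1b (-1.20 ± 0.31), Tnf (-2.48 ± 0.35) and Il6 (-2.42 ± 0.32), whereas in GM4 DC 1 rose (Il1a, 1.58 ± 0.17). The shares of all probe sets were 7.75% lower in GM DC and 5.68% higher in GM4 DC. The difference of these steps was called for Csf3 (1.85 ± 0.38), Il1a (1.97 ± 0.25) and Il1b (2.10 ± 0.42), with 0.427% of probe sets called higher. Il1a had 6 h signals of 2583 to 2967 in GM DC and 722 to 820 in GM4 DC, and 20 h signals of 1890 to 2337 and 2187 to 2532, so the DC types were apart at 6 h and overlapped at 20 h.

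Receptors and scavengers of these chemokines were read from 6 genes with a probe set of their own symbol. Ccrl2, an atypical receptor that binds chemerin and does not signal like the classical receptors, rose by 2.61 ± 0.15 to 6 h in GM DC and by 1.57 ± 0.13 in GM4 DC, and the difference of these rises, -1.04 ± 0.20, was called (adjusted p = 0.0244, with 0.515% of probe sets called in that direction). Ccr1, the signalling receptor for Ccl3, was lower in GM4 DC at 6 h (-1.25 ± 0.34, adjusted p = 0.0272). From 0 to 6 h it fell in GM4 DC (-1.24 ± 0.30), while its change in GM DC (-0.80 ± 0.34) was not called. It rose from 6 to 20 h in both, by 1.59 ± 0.37 in GM DC (8.7% of probe sets higher) and 2.13 ± 0.34 in GM4 DC. Its 20 h values against 0 h, 0.79 ± 0.34 in GM DC and 0.89 ± 0.34 in GM4 DC, were not called. Cxcr2, the receptor of the CXC members, was near the floor, at 16.0 to 18.9 in GM DC and 22.4 to 35.9 in GM4 DC at 0 h, and fell by 0.80 ± 0.21 to 6 h in GM4 DC, where 10% of probe sets fell. Ackr1, a chemokine scavenger on red cells and endothelium, was below 16 on every array. Between the DC types 2 of the 6 were lower in GM4 DC at 6 h (Ccr1 and Ccrl2), where 4.74% of all probe sets were called lower. At 0 h and 20 h limma called 0 of the 6, with 1 higher and 2 lower at an unadjusted p under 0.05 at 0 h, and 1 lower at 20 h.

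Of the 6 other CC ligands listed and measured, 1 rose to 6 h in GM DC (Ccl5, 2.86 ± 0.40) and limma called 0 in GM4 DC, also 0 at an unadjusted p under 0.05. Of all probe sets 8.52% rose in GM DC and 5.84% in GM4 DC. Ccl5 (RANTES) was already 1.88 ± 0.36 higher in unstimulated GM4 DC. The monocyte chemoattractants Ccl7 and Ccl8 were higher in GM4 DC at 20 h, by 3.60 ± 0.56 and 2.35 ± 0.38, and also at 0 h, by 1.54 ± 0.46 and 1.36 ± 0.31. Ccl6 and Ccl9, CC chemokines of mouse myeloid cells, were lower in GM4 DC at 0 h (-1.89 ± 0.28 and -0.65 ± 0.15) and 6 h (-1.21 ± 0.31 and -0.94 ± 0.17). In all, 3 were higher and 2 lower at 0 h, where 6.86% of all probe sets were called higher and 7.12% lower. At 6 h 1 was higher (Ccl8, where 6.39% of probe sets were) and 2 lower (4.74% lower). At 20 h 2 were higher, where 3.14% of probe sets were.

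NF-κB subunits, the factors that act at the κB motif, and inhibitors of the pathway were measured for 10 of 11 listed genes. In unstimulated GM4 DC 7 of 10 were higher, among them Relb (2.04 ± 0.23), Tnfaip3 (A20, an inhibitor of the pathway, 1.58 ± 0.30), Nfkb2 (1.45 ± 0.15) and Nfkbia (IκBα, 1.04 ± 0.16), at the time when 3 of the chemokines were lower there. Of all probe sets 6.86% were called higher at 0 h. At 6 h against 0 h all 10 rose in GM DC and 7 in GM4 DC, where 8.52% and 5.84% of all probe sets were called higher. Nfkbiz, a nuclear cofactor that many secondary response genes need, rose by 4.10 ± 0.21 and 3.88 ± 0.19. The rise was smaller in GM4 DC for Nfkb2 and Nfkbia by the interaction test at 6 h (-1.65 ± 0.22 and -1.52 ± 0.24). From 6 to 20 h 7 fell in GM DC and 5 in GM4 DC, where 7.75% and 6.01% of probe sets were called lower, Nfkbiz by 1.55 ± 0.23 and 1.10 ± 0.21, and limma called a difference between the DC types in this step for 0 of 10, also 0 at an unadjusted p under 0.05.

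Of 7 genes listed for mRNA decay and MAP kinase brakes, 6 were measured. Zfp36l1, a relative of the decay factor Zfp36, was higher in GM4 DC at 0, 6 and 20 h, by 0.73 ± 0.19, 2.11 ± 0.22 and 1.34 ± 0.24. Zfp36l2 was lower at 0 h (-1.73 ± 0.20). Of all probe sets 6.86%, 6.39% and 3.14% were called higher at 0, 6 and 20 h, and 7.12% lower at 0 h. Zfp36 itself and Dusp1, a MAP kinase phosphatase, rose to 6 h in GM DC (0.86 ± 0.20 and 1.76 ± 0.24) and GM4 DC (0.58 ± 0.18 and 1.09 ± 0.21). So did Dusp2 (1.99 ± 0.36 and 1.34 ± 0.32), where 8.52% and 5.84% of all probe sets rose. Over the same step Zfp36l2 fell in GM DC (-2.67 ± 0.23) and GM4 DC (-1.49 ± 0.20). Zfp36l1 fell in GM DC (-1.68 ± 0.22), while its change in GM4 DC (-0.30 ± 0.19) was not called. The difference of these 6 h changes of Zfp36l1, 1.38 ± 0.29, was called.

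Markers of the cell types that such cultures can hold were summed per array. All 12 DC markers were above 16 on some array of every group, with sums of 16126 to 21140 on GM and 24502 to 32970 on GM4 arrays at 0 h. Of 12 measured markers of monocytes and macrophages, which also make these chemokines, 8, 10 and 4 were called lower in GM4 DC at 0, 6 and 20 h, where 7.12%, 4.74% and 1.56% of all probe sets were. Their summed signal was 13766 to 16903 on GM and 4874 to 5419 on GM4 arrays at 0 h, 18576 to 25543 and 5078 to 6603 at 6 h, and 15754 to 16746 and 9011 to 9235 at 20 h. Marco was below 16 on every GM4 array at 0 h, and Mrc1 and Ccr2 on every GM4 array at 20 h. The list thus ran lower in GM4 DC at the times when Cxcl1, Cxcl2, Ccl3 or Ccl4 did, and also at 20 h, when Cxcl1 and Cxcl5 were higher there. From 6 to 20 h its sum went down in GM DC and up in GM4 DC. The mean signals of Cxcl2, Cxcl5 and Ccl3 did so too, while those of Cxcl1 and Ccl4 went down in both. Neither change of Ccl3 was called, nor was that of Cxcl2 in GM4 DC. For the list, limma called 0 of the 12 differences of that step, with 6 higher at an unadjusted p under 0.05, and their median was 0.84. The list's part in the chemokine differences was not tested, nor was that of the 3′/5′ ratio beyond the covariate fits.

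Neutrophils, which can be both source and target of these chemokines, had 15 of 17 markers measured. Their summed signal was 9825 to 10024 on GM and 9965 to 15577 on GM4 arrays at 0 h, 7869 to 10769 and 8246 to 11602 at 6 h, and 4414 to 5555 and 4026 to 4054 at 20 h. GM4 against GM, 3 were higher and 3 lower at 0 h, 2 lower at 6 h and 1 lower at 20 h. Of all probe sets 6.86% were called higher and 7.12% lower at 0 h, 4.74% lower at 6 h and 1.56% lower at 20 h. Ctsg was below 16 on every array in both DC types at 6 h and at 20 h. The ranges of the DC types overlapped at 0 and 6 h. In both DC types the sums at 20 h lay below those at 0 and 6 h, and at 20 h the GM4 sums lay below the GM sums.

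Stromal markers, 10 of 10 measured, included 1 higher and 4 lower in GM4 DC at 0 h, with sums of 746 to 1676 on GM and 445 to 807 on GM4 arrays. Of all probe sets 6.86% were called higher at 0 h and 7.12% lower. Summed signals of 11 T and NK cell markers were low (114 to 338 over the 15 arrays), with Cd3d, Cd3g, Cd8b1, Ncr1 and Prf1 below 16 on every array. Those of 7 B cell markers (208 to 367) and 9 mast cell and basophil markers (138 to 479.6) were also low. The last were highest at 6 h, when Hdc had risen by 3.66 ± 0.30 in GM DC and 2.92 ± 0.26 in GM4 DC. In these lists Kit, Mcpt8, Gzma, Gzmb and Cd79b were called higher in GM4 DC at 0 h, and Cpa3, Cd3d and Cd22 lower.

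The genes whose 6 group means ran most like each member's were picked among 3059 genes whose means spanned at least 1 on the log2 scale. For Cxcl1 they were Abhd16a (Pearson r = 0.992), Ptpn11 (0.992) and Hspa1b (0.989), and for Cxcl2 Rab20 (0.993), Irgm1 (0.99) and Hspa1a (0.988). For Cxcl5 they were Rufy3 (0.938), Slc7a11 (0.888) and Stam2 (0.887), for Ccl3 Sh3bp2 (0.978), Clca1 (0.978) and Ifi204 (0.966), and for Ccl4 Tpbg (0.986), Apaf1 (0.978) and Ppp1cb (0.977). Among the members themselves, r over the 6 means was 0.965 for Cxcl1 with Ccl4, 0.96 for Cxcl2 with Ccl3, 0.944 for Cxcl1 with Cxcl2 and 0.913 for Ccl3 with Ccl4. Cxcl5 was the least alike, at 0.657 to 0.755 with the others. These values describe 6 points that share arrays, and the number of points limits them.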

How the data were processed

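RNA of NOD mouse DC was hybridised to 1 Affymetrix array per sample. The deposited values are probe set signals (intensity, linear scale). The submitters' processing notes name MAS5 for them, with its version not given in the sources used here, and each array's 2% trimmed mean was 150.1, so the authors had scaled the arrays. A change in total RNA would not be seen after such scaling.

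Of 12488 probe sets 66 controls were left out. In R 4.3.3, limma 3.58.1 fitted 6 group means to log2(signal + 16) on 15 arrays (9 residual degrees of freedom), with intensity-trend moderation and Benjamini-Hochberg adjustment over 12422 probe sets. Contrasts compared GM4 with GM at every time, the 3 steps between times within a DC type, and the steps' differences between DC types, and the script was tested on simulated data. Named were the 5 genes, called members of the lists, and the 3 genes most alike to each member. The members and lists were chosen with earlier results of these data known.

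The same values were recomputed with other offsets (1 and 64), quantile-normalized or median-centred arrays, probe sets above the 40th percentile of mean signal, no trend, weighted arrays, the replicate number as a block, only the groups compared, the second Cxcl1 probe set, and each array left out in turn. A covariate for RNA quality (the 3′/5′ ratio of control genes) and a fit without 2 arrays in doubt, GM 0 h replicate 3 (the highest Gapdh ratio) and GM 6 h replicate 1, were also run, both known from earlier work on these data. The difference of the 6 to 20 h steps was added after its values were seen.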

Additional observations from a re-analysis of the deposited data

Results flagged for a closer look

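These results were singled out because the same step differed between GM and GM4 DC by the interaction test (limma, adjusted over 12422 probe sets). For the response from 0 to 20 h, GM4 minus GM, the values were 1.71 for Cxcl2, 2.36 for Cxcl5, 2.07 for Ccl3 and 1.62 for Ccl4 on the log2 scale. For the step from 6 to 20 h, they were 1.83 for Cxcl1, 1.99 for Cxcl2 and 2.71 for Cxcl5. Each value rests on 4 arrays at 20 h, 2 per DC type, and each call was lost when one of several arrays was left out.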

How the results depend on the processing

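Of 39 calls among the 5 genes over 12 comparisons, 22 were kept under every alternative run and 17 were lost under at least 1. Kept throughout were the 0 h differences of Ccl3 and Ccl4, the 20 h difference of Cxcl5 and the rises of Cxcl1, Cxcl2, Ccl3 and Ccl4 to 6 h, among others. At 6 h the 2 genes called lower in GM4 DC became 0 with the RNA quality covariate, 1 (Cxcl2) without the doubted arrays and 1 (Cxcl1) in a fit of those groups alone, and at 20 h the 2 called became 1 with only the groups compared. The 6 h interaction went from 0 to 1 with array weights (Ccl3, 1.60), and the 20 h interaction from 4 to 2 without the doubted arrays. Leaving out 1 array gave counts of 0 to 2 at 6 h, 1 to 2 at 20 h, 2 to 4 for GM DC from 6 to 20 h, 1 to 3 for GM4 DC from 6 to 20 h, 0 to 2 for the 6 h interaction and 0 to 4 for the 20 h interaction; a lone array left in a group was assumed to vary like the other groups. Calls lost at an offset of 64 were Cxcl2 at 0 h (-0.68) and in the 20 h interaction (1.30), and Cxcl5 from 0 to 6 h in GM4 DC (0.53) and from 6 to 20 h in GM DC (-0.68). Those lost at 1 were Cxcl5 from 6 to 20 h in GM DC (-1.54) and in the 20 h and late-step interactions (2.84 and 3.30). The cause of these moves was not tested.

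Signs turned for 20 of 1572 values, all of them uncalled. The 0 h difference of Cxcl1 became 0.0042 (quantile), 0.0010 (centring), 0.017 (weights), 0.12 (covariate) and 0.034 (doubted arrays). That of Cxcl5 became 0.0057, 0.15, 0.31 and 0.13 under quantile, weights, covariate and doubted arrays. The 6 h interaction of Cxcl2 became 0.031 with weights. With 1 array left out, the 0 h differences ran from -0.18 to 0.034 for Cxcl1 and from -0.43 to 0.13 for Cxcl5, those at 6 h from -0.83 to 0.064 for Ccl3 and from -0.70 to 0.091 for Ccl4, and the 6 h interaction of Cxcl2 from -0.64 to 0.083. Cxcl5 at 20 against 0 h in GM DC ran from -0.079 to 0.48, and Ccl3 from 6 to 20 h in GM4 DC from -0.079 to 0.32.

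Same-numbered samples deviated together by a correlation over 0.1 in 17 of 33 pairs (lowest 0.0026), against 2 of 60 pairs of different number. The deviations within a group of 2 arrays mirror each other, so the 2 kinds of pair are not independent. Since not every pair passed, the numbers were not taken as a pairing, and the main fit does not account for what same-numbered samples share. With the replicate number as a block, Cxcl2 from 6 to 20 h in GM4 DC was called (0.84, adjusted p = 0.0217) and no other call of the 5 genes changed; probe sets called went from 119 to 206 for the 6 h interaction and from 157 to 260 for the 20 h interaction.

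Probe sets called over the whole array moved by over 1.5 times as follows. At 0 h 1736 became 964 (covariate) and 1143 (groups compared), at 6 h 1383 became 794, 723 and, without the doubted arrays, 678, and at 20 h 584 became 335 (covariate). GM DC at 6 h went from 3012 to 1943 (groups compared) and 1958 (doubted arrays), and from 6 to 20 h from 2044 to 1198 (groups compared). With weights, GM4 DC went from 1970 to 3000 at 6 h and from 1452 to 2212 from 6 to 20 h. The 6 h interaction went from 119 to 213 (filter), 230 (weights) and 70 (groups compared), the 20 h interaction from 157 to 304 (weights), and that of the late step from 83 to 46 (quantile), 55 (centring), 125 (filter), 125 (covariate), 23 (doubted arrays) and 23 (groups compared). With 1 array left out, the counts ran from 1114 to 1743 at 0 h, 604 to 1464 at 6 h and 146 to 650 at 20 h. They ran from 1929 to 3024 for GM DC at 6 h and 1242 to 2148 from 6 to 20 h, from 1392 to 2711 for GM4 DC at 20 h and 566 to 1515 from 6 to 20 h, and from 54 to 298, 15 to 168 and 8 to 113 for the 6 h, 20 h and late-step interactions. The arrays, 2 or 3 per group, limit the precision, and Cxcl5 lies close to background at 0 h.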
